A study of Mus musculus with 12 samples.

Results

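The subunits of the receptors for glutamate and GABA, the main excitatory and inhibitory transmitters of the brain, were followed across 12 RNA-seq libraries of mouse white matter. Members were the genes whose symbols begin with Gria, Grid, Grik, Grin, Grm, Gabr or Gabbr and a member number or letter, and that had at least 10 counts in at least 3 of the 12 libraries. Of 24060 genes listed, 49 matched by symbol and 43 met the count rule, and all 43 were among the 14354 genes tested. Of these, 41 encode receptor subunits, 24 for glutamate (17 ionotropic, 7 metabotropic) and 17 for GABA. The other 2 matched by symbol only: Grid2ip encodes a scaffold protein of synapses, and Grin1os is a noncoding RNA antisense to Grin1. The 6 genes outside the count rule were Grin3b, Gabrr1, Gabrr3, Gabra6, Gabrp and Grm6. Grin3b and Gabrr1 reached 10 counts in 2 libraries each, with highest counts of 57 and 63, while Gabrp and Grm6 were at 0 in all 12, which allows up to 3 counts in each library. Gabre lay just inside the rule with 28, 50 and 17 counts in its 3 libraries over the minimum.

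The libraries came from 6 male mice of genotype Tie2-Cre:Rpl22-HA, of which 3 ate chow with 10% of its calories as fat (the control-fat diet, CFD) and 3 chow with 60% (the high-fat diet, HFD). In all 6 mice, Cre driven by the Tie2 promoter puts a hemagglutinin tag on the ribosomal protein Rpl22 in cells of the Tie2 lineage, which takes in endothelium and blood-borne cells. Each mouse gave 1 library of RNA from the tagged-ribosome pulldown (IP) and 1 of the whole white matter lysate (input), so that 4 groups held 3 libraries each. The age of these mice is not given in the sources used here. Values are listed in the order of animals 489, 555 and 556 for CFD and 516, 517 and 676 for HFD, in CPM, counts scaled to a common library size by the trimmed mean of M-values (TMM).

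AMPA, kainate and NMDA receptors are glutamate-gated ion channels built from 4 subunits each. AMPA receptors carry fast excitation, kainate receptors tune release and excitability, and NMDA receptors join the obligatory Grin1 subunit to Grin2 or Grin3 subunits and admit calcium. Metabotropic receptors (Grm) act through G proteins. GABA-A receptors are chloride channels that usually combine alpha and beta subunits with a gamma or delta subunit, and GABA-B receptors need both Gabbr1 and Gabbr2. In white matter, oligodendrocyte progenitors and astrocytes carry many of these receptors, and axons and nearby neurons add their own.

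Library totals ran from 19567186 to 33660708 counts. The feature Rn45s, a ribosomal RNA precursor, took 38.7% to 42.3% of counts in CFD IP, 17.1% to 19.1% in HFD IP, 8.6% to 14.2% in CFD input and 6.34% to 9.29% in HFD input. Against the scaling used here, raw library totals would move every gene by the same step on the log2 scale in each comparison. The step is -0.83 for CFD IP against CFD input and -0.42 for HFD IP against HFD input. It is 0.56 for HFD IP against CFD IP and 0.16 for HFD input against CFD input. Differences between groups are therefore relative to the other genes. The pulldown was checked against marker lists. The summed level of 10 endothelial genes exceeded that of the input in 3 of 6 animals, and ranged from 3.87 to 213 CPM in CFD IP and from 9.39 to 67.1 CPM in HFD IP, against 10.6 to 20.4 CPM in CFD input and 10.2 to 41.3 CPM in HFD input. Of the 10 endothelial genes, 8 were at 0 in at least 1 of the 6 IP libraries: Cldn5 in 4, Tek, which encodes Tie2, in 3, and 5 of them in a single one. Cdh5 and Egfl7 were at 0 in none, and Egfl7 had 3650 counts in the IP of animal 556. The summed level of 10 neuronal genes was 7074 to 10801 CPM in CFD IP and 9875 to 11850 CPM in HFD IP, against 9635 to 15054 CPM in CFD input and 8819 to 12613 CPM in HFD input, with no neuronal gene at 0 in any library. The IP sum of these genes exceeded the input sum in 1 of 6 animals. Snap25 had the most counts of the 10 in every library and weighs most in the sum. By fold change, 5 of the 10 neuronal genes were higher in CFD IP than in CFD input, and 8 of 10 in HFD IP than in HFD input. The summed level of 8 oligodendrocyte genes was 4924 to 6227 CPM in CFD IP and 2853 to 7115 CPM in HFD IP, against 3881 to 4785 CPM in CFD input and 2872 to 4327 CPM in HFD input. That of 6 genes of oligodendrocyte progenitors was 158 to 183 CPM in CFD IP and 141 to 329.99 CPM in HFD IP, against 137 to 157 CPM and 133 to 162 CPM in the inputs, and that of 6 astrocyte genes 507 to 688 CPM and 449 to 471 CPM, against 528 to 584 CPM and 404 to 433 CPM. For each of these 3 lists the IP sum exceeded the input sum in 5 of 6 animals, against 3 of 6 for 6 microglial genes and 2 of 6 for 6 pericyte genes. The libraries are called IP by their label. The part of RNA from any of these cell types in the receptor levels was not tested, and in bulk RNA fewer cells of a type and less RNA per cell cannot be told apart.

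The letters around the start codon are shown first for 6 members on which the results turn, read from the RefSeq annotation of GRCm38.p6, the assembly also called mm10. Grik5, Grin1 and Gabbr2 had higher levels in IP in each of the 6 animals, Grin2c had a high ratio in CFD with groups that overlapped, Gria2 was lower in CFD IP than in CFD input, and Gria1 was the member with the highest level per length. Each line gives 10 bases before the start codon, the codon in capitals and 7 bases after it.
Grik5: ggggaggaagATGccggctg
Grin1: cccgaggctcATGagcacca
Gabbr2: gcggcgcggcATGgcttccc
Grin2c: tccagtggacATGggtggag
Gria2: tttcttggaaATGcaaaaga
Gria1: aaaaaggaatATGccgtaca
The codons lie at chr7:25068520-25068522 in exon 2 of Grik5 (Entrez gene 14809), chr2:25318884-25318886 in exon 1 of Grin1 (14810), chr4:46991423-46991425 in exon 1 of Gabbr2 (242425) and chr11:115261130-115261132 in exon 4 of Grin2c (14813), all on the minus strand. That of Gria2 (14800) at chr3:80802382-80802384 in exon 1 is also on the minus strand, and that of Gria1 (14799) at chr11:57012034-57012036 in exon 1 is on the plus strand. GC made up 70.0% of these 20 bases in Grik5, 65.0% in Grin1, 80.0% in Gabbr2, 60.0% in Grin2c, 30.0% in Gria2 and 35.0% in Gria1.

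The first 120 coding bases of Grik5 and Gria2 are given because, among the 14 subunits above 100 CPM, these had the highest and the lowest mean log2 ratio of IP to input over the 6 animals. The start codon is in capitals.
Grik5: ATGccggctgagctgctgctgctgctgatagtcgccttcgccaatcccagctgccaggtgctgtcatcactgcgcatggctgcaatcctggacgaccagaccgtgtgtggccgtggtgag
Gria2: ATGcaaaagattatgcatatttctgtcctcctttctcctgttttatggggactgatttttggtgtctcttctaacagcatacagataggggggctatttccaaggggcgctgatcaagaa
GC made up 62.5% of the stretch in Grik5 and 42.5% in Gria2. Over the whole coding sequence the values were 61.6% of 2940 bases and 44.7% of 2652 bases.

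Receptor genes spanned a wide range of levels. Per kb of the gene length behind the deposited FPKM, and averaged over the 12 libraries, the AMPA subunit Gria1 led with 107 CPM per kb. Among the other subunits described here, Gria2 stood at 96.5, Grin1 at 78.3, Grin2b at 68.4, Gabra5 and Gria3 at 67.2 each, Gabbr2 at 66.8 and Gabbr1 at 63.9 CPM per kb. Grik5 (40.0), Gabrb2 (32.4), Grm5 (26.1) and Gabra2 (24.9) were lower, and the lowest were Gabrr2 at 1.30, Gabrq at 1.01 and Gabre at 0.133 CPM per kb. With these lengths the order of Gria1 and Gria2 differed between groups. Gria1 was above Gria2 in all 3 libraries of each IP group without overlap, at 96.2 to 124 against 43.4 to 76.6 CPM per kb in CFD IP and 112 to 128 against 73.98 to 101.2 in HFD IP. In CFD input they overlapped, and in HFD input Gria2 was higher in each of the 3 libraries with overlapping ranges. The deposited length of Gria2 is 6.841 kb and its RefSeq transcript 10057 bases, while the lengths of Gria1 match, at 5.738 kb. This order and the size of the AMPA shares below therefore depend on the length used. For 6 subunits the deposited length and the RefSeq transcript differ by more than 2-fold: Grin2b (7.505 kb against 24123 bases), Grin2a (4.512 kb, 15521), Gabrb1 (1.86 kb, 14272), Gabrg3 (1.673 kb, 9796), Grik2 (4.785 kb, 10655) and Gabra2 (2.392 kb, 5057), so their places in the order and the size of their shares below depend on the length used. Each of the AMPA, NMDA, kainate, alpha and beta families held abundant and scarce members.

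**Figure D1:**
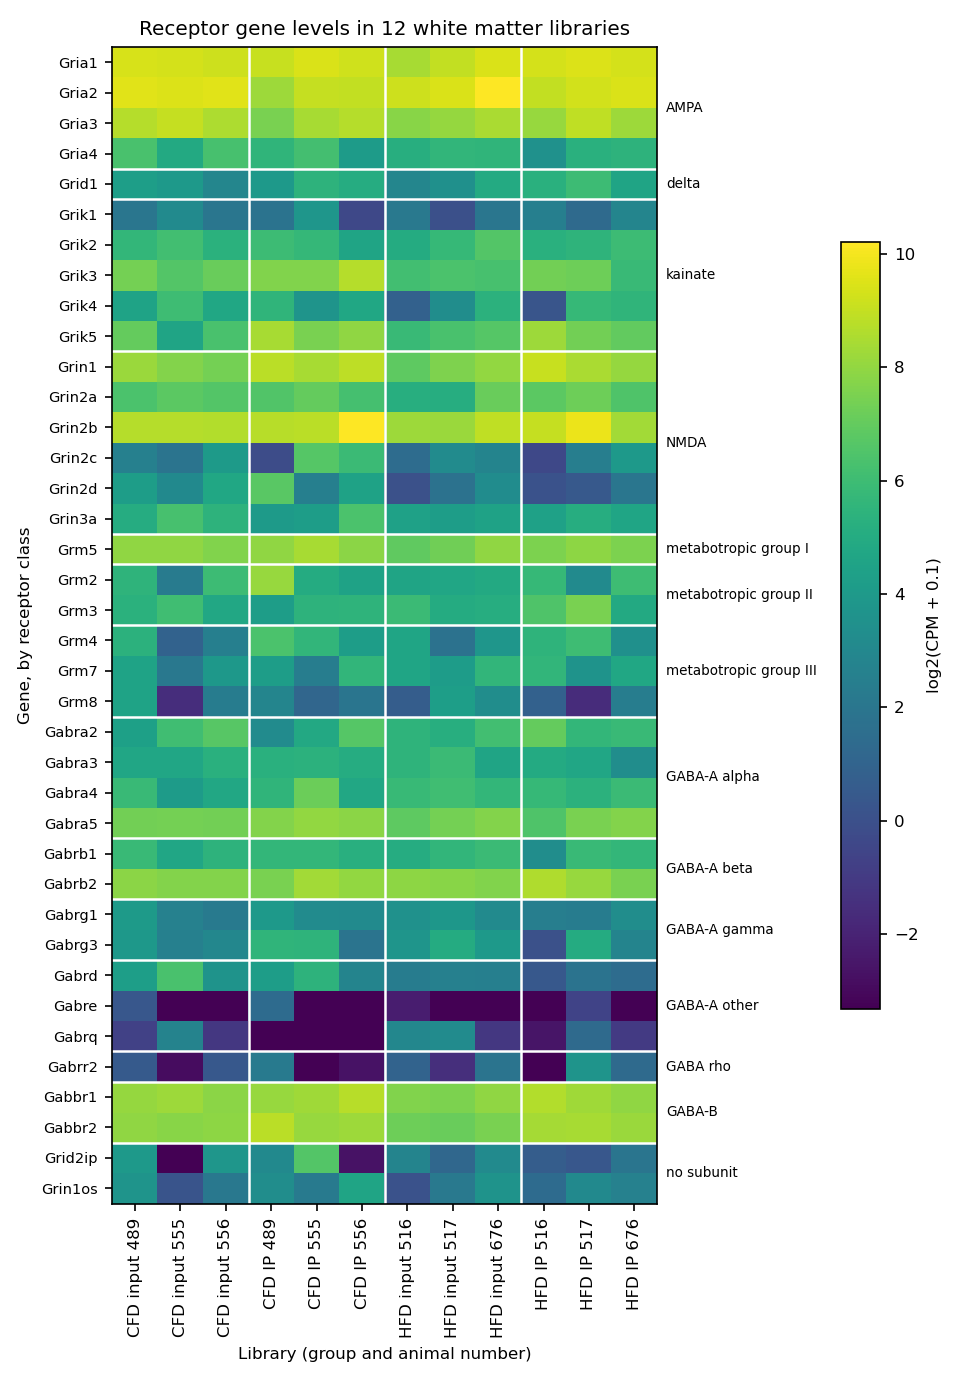
Heat map of log2(CPM + 0.1) for 38 of the members (vertical axis, by receptor class) in the 12 libraries (horizontal axis, group and animal). Gria1, Gria2 and Grin2b are bright in every library, while Gabre, Gabrq and Gabrr2 are dark and change from library to library.

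The spread between animals depended on the level. The biological coefficient of variation estimated by edgeR was 29.5% to 42.9% for the 14 subunits above 100 CPM, 43.7% to 93.3% for the 20 between 10 and 100 CPM and 86.5% to 253% for the 7 below 10 CPM, against a median of 85.8% over all genes tested. A single library held over 50% of the summed level of its group for 18 of 41 subunits in CFD input, 19 in CFD IP, 14 in HFD input and 16 in HFD IP. The most even values were those of the abundant subunits: Gria1 differed 2.09-fold between its lowest and highest library.

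No member had an adjusted p under 0.1 in any of the 5 comparisons with edgeR's quasi-likelihood test. HFD IP against CFD IP, which asks how diet alters ribosome-bound RNA in the pulldown, called 0.0557% of all genes tested. In that comparison 4 members were higher and 5 lower at an unadjusted p under 0.05, or 9.3% and 11.6% of 43, where 6.08% and 4.82% of all genes were, and the 3 animals of one diet lay beyond the 3 of the other for 7 members (16.3%) and 10.6% of all genes. The median log2 fold change of the members was -0.23, against 0.03 over all genes, and the smallest adjusted p was 0.255, for Grin2d. DESeq2 called 3 of the 42 members to which it gave an adjusted p (7.14%, against 5.79% of 13295 genes), Grin2d and Gabrd as lower and Gabrq as higher in HFD IP. With no filter on low counts edgeR called 1 member (2.33%, against 1.2% of 18302 genes).

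IP against input, which asks what the pulldown enriched, called 0.188% of all genes in CFD and 0.0139% in HFD. In CFD, 4 members were higher and 3 lower in IP at an unadjusted p under 0.05 (9.3% and 6.98%, against 5.94% and 5.88% of all genes), and IP and input did not overlap for 11 members (25.6%, against 15.2% of all genes). In HFD, 4 members were higher and 0 lower (9.3% and 0.0%, against 4.68% and 1.83%), and 5 members did not overlap (11.6%, against 14.1%). The members' median log2 ratio was 0.30 in CFD and 0.35 in HFD, against -0.01 over all genes in both. DESeq2 called 3 of 42 members in CFD (7.14%, against 6.03% of 13535 genes), among them Grik5 as higher and Gabrq as lower in IP. In HFD it gave an adjusted p to 14 members and 1274 genes, and called 3 of these members (21.4%, against 12.6%), with Grin1, Gabbr2 and Grik5 higher in IP. In CFD, no filter on low counts and the animal as a replicate block each called 1 member (2.33%), against 1.7% and 0.968% of all genes. In HFD these fits called 0 members, against 0.432% and 0.167%.

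HFD input against CFD input, which asks how diet alters the whole tissue, called 0.0% of all genes with edgeR, and DESeq2 called 0 members and 0.225% of all genes. At an unadjusted p under 0.05, 0 members were higher and 3 lower in HFD (0.0% and 6.98%, against 1.09% and 0.941% of all genes). The groups did not overlap for 7 members (16.3%, against 10.4% of all genes in either direction), all 7 of them lower in HFD, among them Gria3, Gabbr2, Grik3, Grin3a and Gabrd. The share of all genes lower without overlap was not counted. The median log2 fold change of the members was -0.22, against -0.004 over all genes. Of the 43 members 28 were below 0, a count without a share over all genes beside it. The interaction, which asks whether the ratio of IP to input differs with diet, called 0.0% of all genes. At an unadjusted p under 0.05 it gave 1 higher and 0 lower member (2.33% and 0.0%, against 3.15% and 2.22%), and DESeq2 called 1 of 42 (2.38%, against 0.877%). The diet comparisons and the IP comparisons share libraries, so their values are given side by side below, and no overlap between comparisons is counted.

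The AMPA receptor genes had the highest summed level of the ionotropic glutamate receptor families by group mean, with 1906 ± 73.5 CPM in CFD input, 1428 ± 311 in CFD IP, 1670.4 ± 563 in HFD input and 1678 ± 224 in HFD IP (SD, n = 3 each). Gria1, which encodes GluA1, stood at 683, 645 and 591 CPM in CFD input, 552, 709 and 608 in CFD IP, 353, 495 and 713 in HFD input, and 645, 737 and 659.6 in HFD IP. All 4 groups overlapped for Gria1. Gria2 encodes GluA2, the subunit that keeps most AMPA receptors impermeable to calcium, and stood at 783, 737 and 786 CPM in CFD input, 297, 524 and 511 in CFD IP, 593, 699.6 and 1168 in HFD input, and 506, 624 and 692 in HFD IP. Its 3 CFD IP libraries were below all 3 CFD input libraries, with a log2 fold change of -0.79 (SE 0.296, adjusted p = 0.315), a fold of 0.578. In HFD the ranges overlapped, and within each of the 6 animals the IP was lower than the input. Gria3 stood at 418, 515 and 369 CPM in CFD input, 178, 348 and 424 in CFD IP, 224, 268 and 369 in HFD input, and 280.4, 490.0 and 304 in HFD IP, and its 3 CFD inputs were above all 3 HFD inputs, by less than 1 CPM between the nearest pair. Gria4 stood at 81.6, 30.2 and 78.3 CPM in CFD input, 46.3, 70.8 and 16.9 in CFD IP, 35.9, 47.3 and 45.8 in HFD input, and 11.5, 38.4 and 43.7 in HFD IP and its groups overlapped throughout.

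The makeup of the AMPA family does not depend on library scaling. As a share of the 4 genes' CPM per kb, Gria2 held 34.8, 33.2 and 37.9% in CFD input, 23.8, 27.3 and 28.1 in CFD IP, 43.8, 41.1 and 45.6 in HFD input, and 30.5, 28.4 and 35.8 in HFD IP. Its share was lower in IP than in input in 6 of 6 animals, by 5.82 to 13.3 percentage points. Gria1 went the other way, with 36.2, 34.6 and 34.0% in CFD input, 52.8, 44.1 and 39.9 in CFD IP, 31.1, 34.7 and 33.2 in HFD input, and 46.4, 40.0 and 40.6 in HFD IP, a share higher in IP in 6 of 6 animals by 5.35 to 16.6 points. Between diets, the Gria2 share was higher in every HFD input than in every CFD input, and higher in every HFD IP than in every CFD IP. The nearest IP pair was almost tied, at 28.15% in CFD animal 556 and 28.41% in HFD animal 517. How many shares of other subunits separated by diet was not counted. Of 24 such shares in 6 families, 2 were higher and 2 lower in IP in all 6 animals, the other pair being Grik5 and Grik2 below, and no test was made on shares. Shares within a family depend on each other, since a fall in 1 raises the rest, so the 2 shares of a pair are not separate observations. By level, Gria1 was higher in IP in 4 of 6 animals and Grik2 in 2 of 6.

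**Figure D2:**
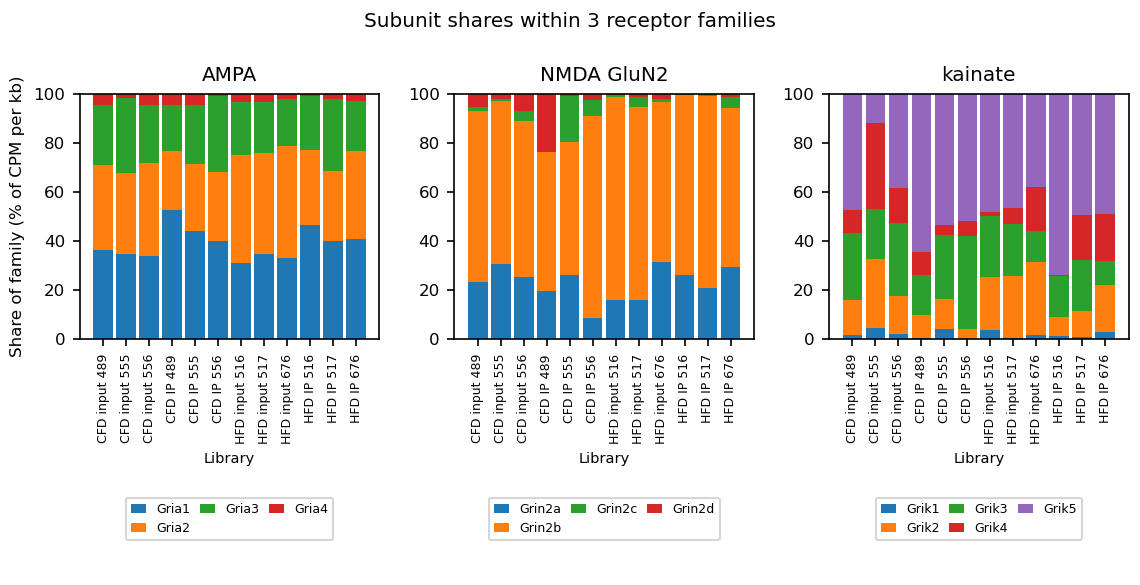
Shares of each subunit within 3 receptor families (vertical axis, percent of the family's CPM per kb; horizontal axis, library), for AMPA, NMDA GluN2 and kainate genes. The Gria2 share lies between 33.2% and 45.6% in the inputs and between 23.8% and 35.8% in IP.

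The NMDA receptor genes summed to 805 ± 45.7 CPM in CFD input, 1353 ± 475 in CFD IP, 651 ± 233 in HFD input and 1136 ± 374 in HFD IP (SD, n = 3 each). In CFD IP they exceeded the AMPA genes in animals 489 (1102 against 1073 CPM) and 556 (1901 against 1559.8 CPM). In CFD the order of input and IP turned on raw library totals, where the sum was 945 ± 49.3 in input and 882 ± 233 in IP. Grin1 encodes the GluN1 subunit that every NMDA receptor needs, and stood at 287, 205 and 167 CPM in CFD input, 446, 352 and 466 in CFD IP, 117, 194 and 256 in HFD input, and 540.4, 364 and 272 in HFD IP. In both diets all 3 IP libraries were above all 3 inputs. The log2 ratio of IP to input was 0.94 (SE 0.343, adjusted p = 0.304) in CFD and 1.05 (SE 0.343, adjusted p = 0.583) in HFD, or 1.92-fold and 2.07-fold. Leaving out animal 556 gave 0.69 in CFD, and leaving out animal 516 gave 0.48 in HFD. On raw library totals the IP of Grin1 was higher in 4 of 6 animals. The gene lies on chromosome 2 at 25291177 to 25319187, minus strand, and holds Grin1os at 25291258 to 25298660 on the plus strand. Whether reads were counted by strand is not stated, so the reads of Grin1 and Grin1os cannot be told apart. Grin1os had at most 24.3 CPM in any library.

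Grin2a and Grin2b encode GluN2A and GluN2B, which bind glutamate and set how long the channel stays open. Grin2a stood at 83.1, 114 and 97.1 CPM in CFD input, 92.4, 131 and 74.5 in CFD IP, 35.4, 35.1 and 140.3 in HFD input, and 113, 148 and 90.1 in HFD IP, and all its groups overlapped. Grin2b stood at 414, 412 and 404 CPM in CFD input, 439.5, 449 and 1192 in CFD IP, 307, 291 and 482 in HFD input, and 526, 919.9 and 326 in HFD IP. Its 3 CFD IP libraries were above all CFD inputs, although the IP of animal 556 alone held 57.3% of the group's level. Grin3a, whose product lowers calcium entry, ranged from 16.3 to 84.7 CPM.

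Grin2c and Grin2d encode the less abundant GluN2C and GluN2D. Grin2d stood at 18.8, 8.39 and 26.5 CPM in CFD input, 107, 5.7 and 22.4 in CFD IP, 0.917, 3.4 and 9.52 in HFD input, and 0.971, 1.29 and 3.93 in HFD IP. All 3 HFD IP libraries were below all 3 CFD IP libraries, and the log2 fold change of HFD IP against CFD IP was -4.45 (SE 1.2, adjusted p = 0.255), the smallest adjusted p among members in that comparison. The IP of animal 489 held 79.2% of the CFD IP level, and without that animal the value was -2.78. With no filter on low counts the adjusted p was 0.0237, and with DESeq2 it was 0.00095. Grin2c stood at 5.79, 3.6 and 16.3 CPM in CFD input, 0.776, 99.2 and 60.6 in CFD IP, 2.7, 9.27 and 6.79 in HFD input, and 0.659, 5.42 and 15.3 in HFD IP. Its log2 fold change was 2.64 (SE 1.23, adjusted p = 0.405) for CFD IP against CFD input and -2.91 (SE 1.24, adjusted p = 0.404) for HFD IP against CFD IP, while the groups overlapped in both, since the CFD IP of animal 489 stood at 0.776 CPM and that of animal 555 at 99.2 CPM. Without animal 555 these values were 1.5 and -2.12.

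Kainate receptor genes summed to 309 ± 58.8 CPM in CFD input, 613 ± 131 in CFD IP, 237 ± 78.2 in HFD input and 409 ± 106 in HFD IP (SD, n = 3 each), and IP stayed above input in both diets on raw library totals. Grik5 encodes GluK5, a high-affinity subunit that works only together with Grik1, Grik2 or Grik3 products, and stood at 129, 23.8 and 79.2 CPM in CFD input, 349, 182 and 248 in CFD IP, 57.5, 79.5 and 99.8 in HFD input, and 306, 160.4 and 127 in HFD IP. IP was above input in 6 of 6 animals and the groups did not overlap in either diet. The log2 ratio of IP to input was 1.75 (SE 0.483, adjusted p = 0.185) in CFD, or 3.36-fold, and 1.33 (SE 0.478, adjusted p = 0.623) in HFD, or 2.51-fold. With the animal as a replicate block, the CFD value was 2.0 with an adjusted p of 0.0089, which passes the threshold, and with no filter on low counts the adjusted p was 0.00554. Over all alternatives the adjusted p in CFD ran from 0.00554 to 0.462 and the log2 ratio from 1.53 to 2.05. In HFD, leaving out animal 516 gave 0.67. Grik5 is on chromosome 7 at 25009849 to 25075694, minus strand, where its span overlaps Zfp574.

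Within the kainate family, Grik5 held 47.4, 11.8 and 38.4% in CFD input, 64.6, 53.4 and 52.0 in CFD IP, 48.1, 46.7 and 38.2 in HFD input, and 73.9, 49.5 and 48.9 in HFD IP of the CPM per kb. The share was higher in IP in 6 of 6 animals, by 2.76 to 41.6 percentage points. Grik2, which encodes the principal channel subunit GluK2, stood at 49.3, 70.0 and 40.6 CPM in CFD input, 61.8, 51.9 and 23.8 in CFD IP, 32.3, 53.8 and 97.0 in HFD input, and 38.9, 44.1 and 62.2 in HFD IP with all groups overlapping, and its share of the family was lower in IP in 6 of 6 animals, by 5.4 to 15.8 points. Grik3 stood at 169.6, 94.9 and 139.9 CPM in CFD input, 202, 204 and 414 in CFD IP, 68.3, 82.3 and 77.1 in HFD input, and 160.3, 152 and 58.2 in HFD IP. Its CFD IP libraries were above all other libraries of the 4 groups, with a log2 fold change of 1.02 (SE 0.405, adjusted p = 0.338) against CFD input. HFD IP against CFD IP gave -1.14 (SE 0.406, adjusted p = 0.355). Without animal 556 the values were 0.61 and -0.71. Grik1 and Grik4 ranged from 0.673 to 13.6 and from 1.08 to 63.9 CPM. Grid1, a delta receptor gene whose product acts as a synaptic organiser more than as a channel, ranged from 7.2 to 61.8 CPM.

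**Figure D3:**
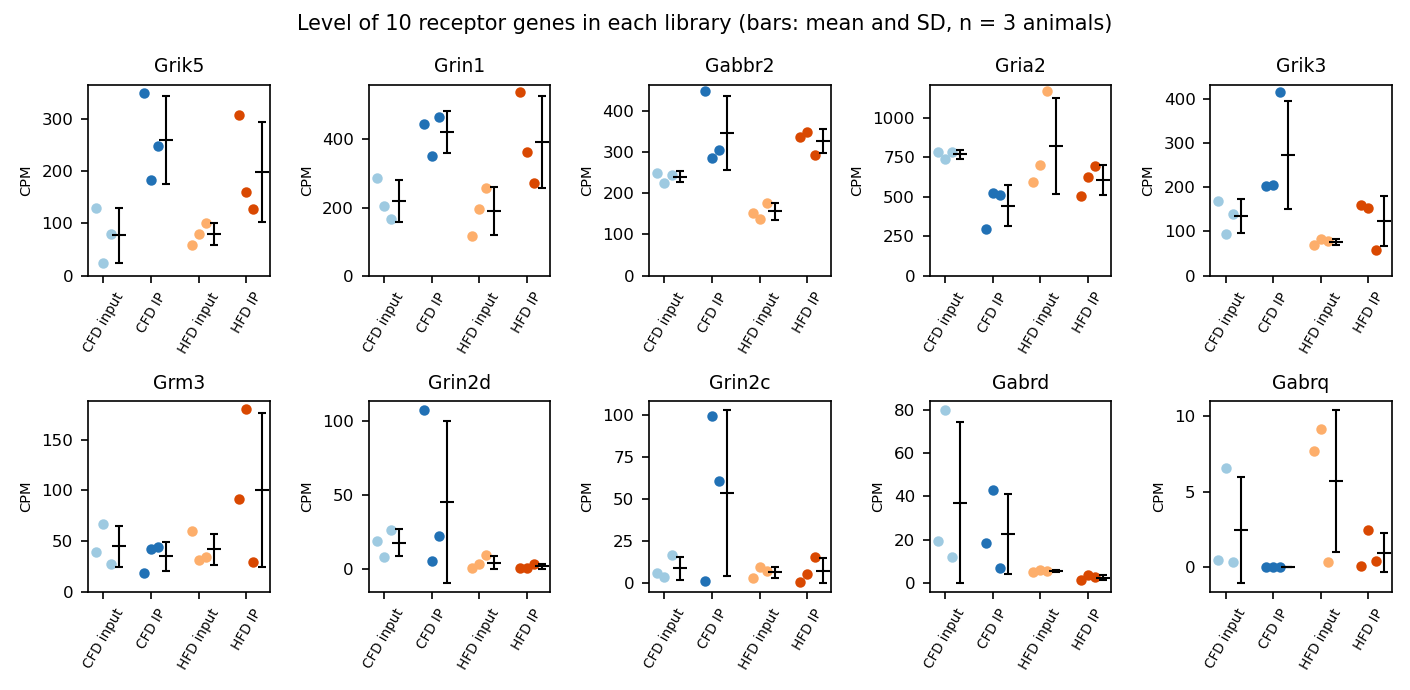
CPM (vertical axes, linear) of 10 members in each library, by group (horizontal axes), with the mean and SD of 3 animals beside the points. The IP points of Grik5 and Grin1 lie above the input points of the same diet, and the HFD points of Gabrd lie below its CFD points.

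Among metabotropic receptor genes, Grm5 of group I had the highest level per length and stood at 247, 248.9 and 203 CPM in CFD input, 247, 349.6 and 230.0 in CFD IP, 119, 158 and 251 in HFD input, and 184, 241 and 189.6 in HFD IP. Its groups overlapped in every comparison. Grm3, a group II receptor that astrocytes carry, stood at 39.7, 67.0 and 27.7 CPM in CFD input, 18.7, 42.5 and 44.0 in CFD IP, 59.9, 31.97 and 34.1 in HFD input, and 91.2, 179.8 and 29.6 in HFD IP. HFD IP against CFD IP gave a log2 fold change of 1.51 (SE 0.601, adjusted p = 0.383) and HFD IP against HFD input 1.25 (SE 0.597, adjusted p = 0.76). The groups overlapped in both, the IP of animal 517 held 59.8% of the HFD IP level, and without that animal the values were 0.78 and 0.36. Grm2 ranged from 4.87 to 278 CPM, and 1 library, the CFD IP of animal 489, held 83.6% of its group's level. Grm7, a group III receptor of presynaptic terminals, stood at 22.7, 4.16 and 14.6 CPM in CFD input, 18.3, 5.22 and 48.9 in CFD IP, 25.02, 18.0 and 48.8 in HFD input, and 47.4, 12.4 and 26.3 in HFD IP without separating any groups, and Grm4 and Grm8 ranged from 1.8 to 83.9 and from 0.231 to 22.9 CPM.

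Alpha subunits hold part of the GABA site of GABA-A receptors. Gabra5, an alpha subunit found mostly outside synapses, ranged from 88.4 to 259 CPM, and its CFD IP libraries were above all CFD inputs and all HFD IP libraries. The nearest pair of CFD IP and HFD IP was almost tied, at 208.69 CPM in animal 489 and 208.05 CPM in animal 676. Gabra2 stood at 20.6, 67.2 and 103 CPM in CFD input, 8.999, 28.4 and 99.6 in CFD IP, 44.5, 36.4 and 69.6 in HFD input, and 128, 50.1 and 57.5 in HFD IP with overlapping groups. Gabra3 ranged from 9.69 to 59.1 CPM, with HFD IP below CFD IP throughout, and Gabra4 from 17.5 to 147 CPM.

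Beta subunits complete the GABA site. Gabrb2 stood at 235, 211 and 211 CPM in CFD input, 179, 329 and 257 in CFD IP, 243, 225 and 198 in HFD input, and 385, 284 and 179.8 in HFD IP, and no pair of groups was separate. Gabrb1 stood at 57.8, 25.8 and 43.4 CPM in CFD input, 49.3, 49.8 and 37.2 in CFD IP, 33.9, 48.4 and 59.7 in HFD input, and 9.81, 57.7 and 49.9 in HFD IP, its lowest value being the HFD IP of animal 516.

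Gamma subunits anchor GABA-A receptors at synapses. Gabrg1, an astrocyte and progenitor subunit, stood at 16.8, 6.17 and 4.63 CPM in CFD input, 16.1, 9.04 and 8.8 in CFD IP, 11.5, 14.5 and 8.85 in HFD input, and 5.44, 5.12 and 9.97 in HFD IP, with overlap in every comparison, and Gabrg3 ranged from 0.936 to 46.3 CPM.

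Gabrd encodes the delta subunit of GABA-A receptors outside synapses and stood at 19.1, 80.1 and 12.2 CPM in CFD input, 18.4, 42.9 and 6.73 in CFD IP, 5.09, 5.76 and 5.58 in HFD input, and 1.25, 3.47 and 2.68 in HFD IP. The 6 HFD libraries lay between 1.25 and 5.76 CPM and the 6 CFD libraries between 6.73 and 80.1 CPM, without overlap. These 6 are an input and an IP library from each of 3 mice, and the share of all genes separated in this way was not counted. On raw library totals the diets would overlap across fractions. The CFD IP of animal 556 had 120 of 29463018 counts, and the HFD input of animal 516 had 183 of 27222491. The log2 fold change was -3.20 (SE 1.01, adjusted p = 0.323) for HFD IP against CFD IP and -2.76 (SE 0.993, adjusted p = 1.0) for HFD input against CFD input. Animal 555 held 63.1% of the CFD IP and 71.9% of the CFD input level, and without it the values were -2.34 and -1.51. DESeq2 gave the IP comparison an adjusted p of 0.00886. Gabrd lies on chromosome 4 at 155384979 to 155398098, minus strand, in a span that overlaps Cfap74.

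Gabrq, which encodes the theta subunit, had no counts in CFD IP and stood at 0.515, 6.52 and 0.365 CPM in CFD input, 0, 0 and 0 in CFD IP, 7.67, 9.09 and 0.355 in HFD input, and 0.0694, 2.48 and 0.396 in HFD IP. Taking 3 counts per library as the floor for a count of 0, the mean of HFD IP was at least 6.28-fold higher than that of CFD IP (adjusted p = 0.365), and at least 1.49-fold higher without animal 517. The HFD IP counts were 2, 75 and 13, so animal 516 was itself under this floor. Without animal 517 the bound rests on the 13 counts of animal 676. The mean of CFD input was at least 15.8-fold higher than that of CFD IP (adjusted p = 0.269), and at least 2.82-fold higher without animal 555. Gabre and Gabrr2, for the epsilon and rho2 subunits, stayed at or below 2.59 and 12.9 CPM and were each at 0 in some libraries. Grid2ip, the fifth member lower in HFD IP than in CFD IP at an unadjusted p under 0.05, lies outside the rule for named genes and is named because of that count. It stood at 15.8, 0 and 13.6 CPM in CFD input, 8.38, 95.9 and 0.0561 in CFD IP, 6.76, 2.17 and 8.85 in HFD input, and 1.49, 1.16 and 3.81 in HFD IP, and the IP of animal 555 held 91.9% of the CFD IP level.

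Both GABA-B genes were above 100 CPM in every library. Gabbr1, whose product binds GABA, stood at 272, 307 and 230.0 CPM in CFD input, 277, 314 and 439 in CFD IP, 199.6, 184 and 250.2 in HFD input, and 405, 313 and 250.02 in HFD IP. Gabbr2, whose product carries Gabbr1 to the membrane and couples to G proteins, stood at 250.03, 226 and 245 CPM in CFD input, 448, 284 and 305 in CFD IP, 152, 137 and 177 in HFD input, and 338, 349.6 and 293 in HFD IP. For Gabbr2 every IP library was above every input library of its diet, and every HFD input below every CFD input. HFD IP against HFD input gave a log2 fold change of 1.07 (SE 0.293, adjusted p = 0.52), or 2.1-fold, and HFD input against CFD input -0.63 (SE 0.29, adjusted p = 1.0). CFD IP against CFD input gave 0.53 ± 0.29 (SE). On raw library totals the IP was higher in 1 of 3 CFD and 3 of 3 HFD animals. Gabbr2 is on chromosome 4 at 46662318 to 46991714, minus strand, and its span overlaps a pair of predicted genes.

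Animal by animal, 3 members had a higher level in IP than in input in all 6 mice: Grin1, Gabbr2 and Grik5 (6.98% of 43, against 4.16% of all genes tested). Gria2 and Gabrd were lower in all 6 (4.65%, against 4.19%). The mean log2 ratio over the 6 animals was 1.63 ± 0.94 for Grik5, 1.02 ± 0.74 for Grin1, 0.79 ± 0.42 for Gabbr2, -0.61 ± 0.45 for Gria2 and -0.93 ± 0.63 for Gabrd (SD, n = 6). Grm4 had a larger mean of 2.04 ± 1.998 and Grid1 one of 1.31 ± 1.32, with IP higher in 5 and 4 of 6 animals. On raw library totals Grik5 stayed higher, and Gria2 and Gabrd lower, in 6 of 6 animals.

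**Figure D4:**
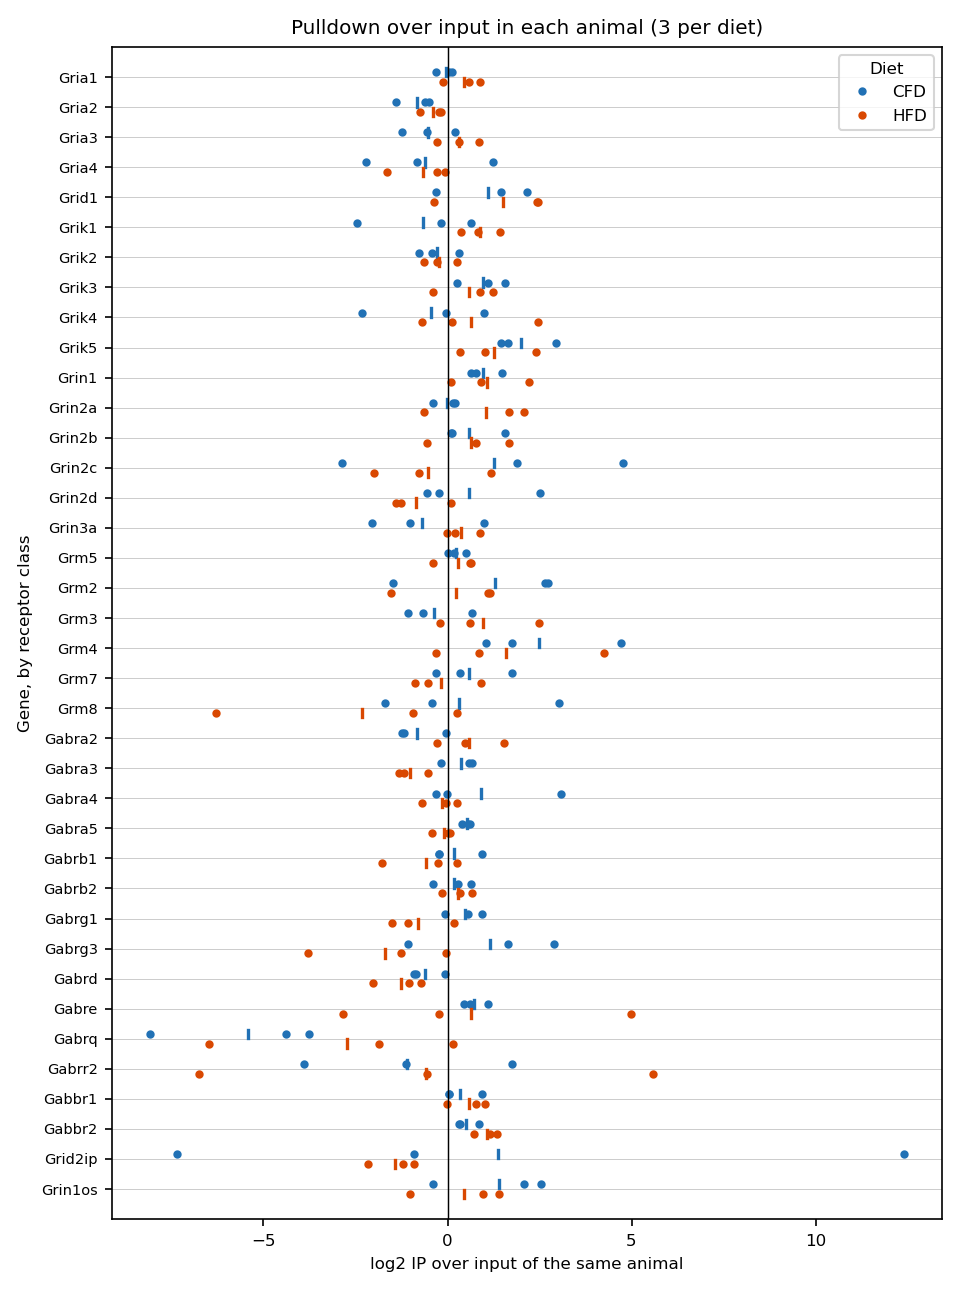
Log2 ratio of IP to input in each animal (horizontal axis; 0.5 counts added before the ratio) for 38 of the members (vertical axis); points are animals, short bars the mean of 3 animals per diet. Grik5, Grin1 and Gabbr2 lie right of 0 in all 6 animals, and the points of rarely counted genes such as Gabrr2 and Grid2ip are far apart.

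The ratio of IP to input varied with the base composition of the transcripts. GC made up a median of 47.8% of the 41 subunit transcripts (35.3% to 67.3%), against 50.4% over 12585 genes tested with a RefSeq transcript. Across the subunits, Spearman's rho between GC and the log2 ratio of IP to input was 0.503 in CFD and 0.371 in HFD, against 0.241 and 0.201 across all genes. For HFD IP against CFD IP it was -0.345, against -0.152 across all genes, and for HFD input against CFD input -0.359, against -0.124. These are descriptions across genes measured in the same libraries, with no test. Among the 10 subunits above 55% GC, the median log2 ratio of IP to input was 1.22 in CFD and 0.99 in HFD, with 8 of 10 above 0 in each, while the median of HFD IP against CFD IP was -0.89, with 1 of 10 above 0. Over all genes above 55% GC the 3 medians were 0.40, 0.29 and -0.24, with 2039, 1940 and 1353 of 3230 genes above 0. Among the 15 subunits below 45% GC they were -0.22, -0.15 and 0.08, nearer 0 than the -0.42, -0.29 and 0.29 of all genes below 45% GC. Among the 16 subunits between, they were 0.23, 0.50 and -0.13, against 0.03, 0.07 and 0.01.

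The 10 members named by fold change differed in GC content. Grik5 (62.3%), Grin1 (59.9%) and Gabbr2 (55.5%) had more in IP in all 6 animals, and Gria2 (36.7%) had less in all 6. Gabrd (56.5%) was lower in IP in all 6 animals and lower in HFD IP than in CFD IP, and Grin2d (67.3%) was lower in HFD IP than in CFD IP. Grin2c (62.1%) had a log2 ratio of IP to input of 2.64 in CFD and 0.19 in HFD. Grik3 (54.2%), Gabrq (50.1%) and Grm3 (46.7%) lie between 45% and 55% GC. The part of GC content in these differences was not tested.

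**Figure D5:**
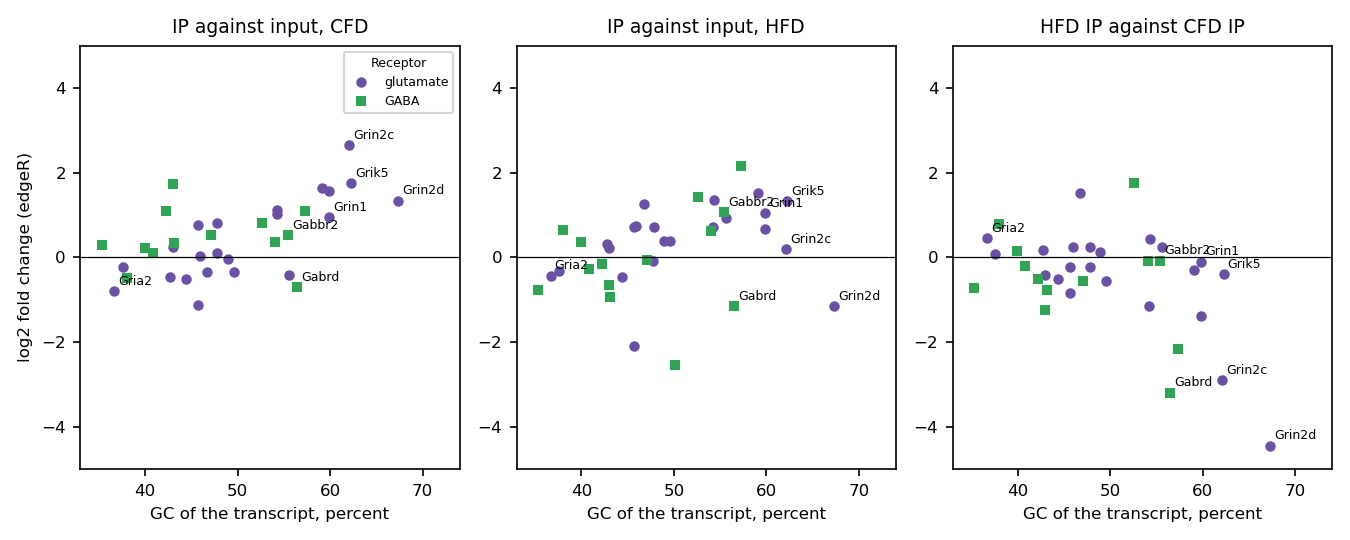
GC content of the transcripts of the subunits described here (horizontal axis, percent) against their edgeR log2 fold change (vertical axis) in 3 comparisons; circles are glutamate and squares GABA receptor genes. Points above 55% GC lie mostly above 0 for IP against input and mostly below 0 for HFD IP against CFD IP. Gabrq is left out of the panels that use CFD IP, where its fold change is beyond 5 because CFD IP is at 0.

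Other genes of the same transmitters were read from 4 lists of 39 genes in all: 14 auxiliary subunits of glutamate receptors, 7 partners of GABA receptors, 10 genes of glutamate and 8 of GABA transport and metabolism. None had an adjusted p under 0.1 in any comparison with edgeR. At an unadjusted p under 0.05, 8 were higher and 2 lower in CFD IP than in CFD input, 6 higher and 1 lower in HFD IP than in HFD input, 0 higher and 2 lower in HFD IP than in CFD IP, and 0 in either direction between the inputs. As shares of 39 these were 20.5% and 5.13% in CFD IP against input, where 5.94% and 5.88% of all genes were higher and lower, 15.4% and 2.56% in HFD (against 4.68% and 1.83%), and 0.0% and 5.13% for HFD IP against CFD IP (against 6.08% and 4.82%). DESeq2 called 4 of 39 in CFD IP against input, and in HFD 3 of the 18 to which it gave an adjusted p (10.3% and 16.7%, against 6.03% and 12.6% of all genes). The medians for the 4 comparisons were 0.18, 0.43, -0.14 and -0.22 on the log2 scale.

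Cacng7, an auxiliary subunit of AMPA receptors, was at 72.4 ± 24.99 CPM in CFD input and 199 ± 52.8 CPM in CFD IP, a log2 fold change of 1.46 (SE 0.418, adjusted p = 0.203), and at an adjusted p of 0.07 with the animal as a block. Gad2, which makes GABA, was at 863 ± 135 CPM in CFD input and 435 ± 154 CPM in CFD IP, a log2 fold change of -0.99 (SE 0.343, adjusted p = 0.274), and at an adjusted p of 0.0879 with the block. Slc17a7, which loads glutamate into vesicles, was at 294 ± 171 CPM in HFD input and 673 ± 104 CPM in HFD IP, a log2 fold change of 1.2 (SE 0.331, adjusted p = 0.52). With the block its adjusted p was 0.0675, and without animal 676 it was 0.0268, where 0.242% of all genes were called. For HFD IP against CFD IP, Cacng7 gave -0.86 (SE 0.412, adjusted p = 0.456). Lhfpl4, which holds GABA-A receptors at synapses, was at 45.8 ± 6.35 CPM in HFD input and 114 ± 63.6 CPM in HFD IP, a log2 fold change of 1.32 (SE 0.441, adjusted p = 0.583). The transporters Slc17a8 and Slc6a13 stood below 3 CPM in all groups but 1, the CFD input of Slc17a8 at 13.9 ± 22.5 CPM.

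The receptor genes share features of position and size that the choice of members did not use. A subunit gene spanned a median of 223.9 kb, against 24.9 kb over 13567 genes tested. Of the 41, 27 overlap the span of another gene, whose reads could be mixed with theirs. The share of all genes with such an overlap was not counted, so this count is not a trait of the receptor genes. Several GABA-A genes lie in clusters, such as Gabrg1, Gabra2, Gabra4 and Gabrb1 on chromosome 5 (70751047 to 72149572) and Gabre, Gabra3 and Gabrq on chromosome X (72256926 to 72842607). In the 250 bases before the RefSeq start site, available for 26 subunits and 33 windows, GC made up a median of 62%, against 52.4% over all windows. The GC box GGGCGG, searched on both strands, was in 17 windows (51.5%), against 32.7% of 32851 windows of all genes, the TATA box TATAAA in 3 (9.09%, against 12.4%), and the cyclic AMP response element TGACGTCA in 0 (0.0%, against 1.55%).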

How the data were processed

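RNA of brain white matter from 6 male mice, an input and an IP library each, was sequenced as paired-end reads. Per the labels and the study's methods the reads were aligned to mm10 with STAR, and the labels also list HTSeq; versions and the use of strand are not given in the sources used here. The labels name a Nugen Ovation Ultra Low Mass kit and the methods a TrueSeq kit with Ribozero. The deposited table holds raw counts per gene symbol, FPKM, and normalised counts that the authors scaled to a common library size (a signal used in no comparison). The deposited FPKM values served only to recover the gene length behind them. The authors' fold changes and p-values were not used, nor were 6 columns of per-sample values that match no sample here.

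Counts were tested with edgeR 4.0.16 (R 4.3.3) after TMM scaling, keeping genes by its count filter (minimum count 10, minimum total 15), with quasi-likelihood tests on 4 group means, Benjamini-Hochberg adjustment over 14354 genes and a threshold of 0.1. SE is the log2 fold change over the square root of F. The code was tested on simulated data. Alternatives were DESeq2 1.42.0, RLE scaling, no filter, raw totals, leaving out Rn45s and Lars2 or each animal, and the animal as a block (limma 3.58.1 for diet contrasts). Input and IP of 1 animal were paired by the labels; their deviations correlated at 0.0064 to 0.19, against a median of -0.0098 between animals. With 3 against 3, an exact permutation test of 1 value cannot go below p = 0.1. Floors cover counting error only. Each animal gave 1 library per fraction, so p-values measure the spread between animals within groups. The main fit took all 12 libraries as separate and shared 1 estimate of the spread over the 4 groups. Its p-values for IP against input therefore do not use the pairing within animals, which only the block alternative does.

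The members and gene lists were chosen with earlier results of these data known. Every library's value is given for main subunits listed by name, and a fold change with its adjusted p for up to 4 members in each direction with the smallest unadjusted p under 0.05; up to 2 genes in each direction were named from the other lists. Transcript features, sequences and coordinates are from RefSeq on GRCm38.p6. Some members and 1 gene of the other lists are counted in totals and group sums, and are not reported here by name.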

Additional observations from a re-analysis of the deposited data

How the results depend on the processing

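The 18 fold changes of 10 members that the rule named kept their direction in every fit that gave them a value. These were fits with RLE scaling, DESeq2, no filter, the replicate block, the 6 libraries compared alone, and without Rn45s and Lars2 or each animal. So did 9 others, of Gabbr2 and 6 genes of the other lists. Most of these folds were named by a small p in the same counts, and the fits share most of their libraries. Their direction was thus largely fixed in advance, and the share of all genes that kept direction was not counted. Gabrq in HFD IP against CFD IP had no value with the 6 libraries compared alone. Its 0 counts in every CFD IP library largely fixed the direction of its folds. Fits on raw totals were not run for single genes. The raw-total step of -0.83 in CFD IP against input is larger in size than the 0.53 of Gabbr2 there. With edgeR as reported no receptor gene was called. With no filter on low counts 1 was called for HFD IP against CFD IP (Grin2d) and 1 for CFD IP against input (Grik5). DESeq2 called 3, 3 and 3 (7.14%, 7.14% and 21.4%, against 5.79%, 6.03% and 12.6% of all genes) in HFD IP against CFD IP, CFD IP against input and HFD IP against input, and 1 in the interaction. The replicate block called 1, Grik5 in CFD IP against input, and changed no other call on a receptor gene. Leaving out any 1 animal called 0 in each comparison. Of the other glutamate and GABA genes, 4 were called with no filter, 4 with DESeq2 and 2 with the replicate block in CFD IP against input. These are 10.3%, 10.3% and 5.13%, against 1.7%, 6.03% and 0.968% of all genes. In HFD IP against input they were 1, 3 and 1, or 2.56%, 16.7% and 2.56%, against 0.432%, 12.6% and 0.167%. Leaving out 1 animal gave 0 to 1 there, the 1 being without animal 676 (2.56%, against 0.242%). The cause was not tested. The summed level of all subunits, 5439, 6060, 4650 and 6043 CPM in CFD input, CFD IP, HFD input and HFD IP as reported, was 6385.5, 4004.5, 6100.0 and 5889.5 on raw library totals, and 6923.8, 7743.0 and 5897.2 with 7595.6 in HFD IP without Rn45s and Lars2, where the totals are smaller by construction. Raw totals turned the order of input and IP in both diets. Libraries of a group differed by a chi-square of 119 to 453 per degree of freedom, beyond counting error, and a count of 0, found for 4 of the 7 subunits below 10 CPM, allows up to 3 counts.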
